A study of Homo sapiens with 18 samples.

Results

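The 36 genes described here repair damaged or mispaired bases and rejoin broken DNA ends, and they were taken by gene name from the count and FPKM tables of both time points, which list 22136 genes at 2 days and 21276 at 7 days. All 36 were present in both tables. They comprise 11 DNA glycosylases, 6 genes that process abasic sites and single-strand breaks, 2 direct-reversal enzymes, 6 mismatch repair genes, 9 genes of nonhomologous end joining, and 2 genes, TP53BP1 and POLQ, that act in the choice of the end-joining route. The RNA came from C4-2B, a human prostate cancer cell line whose genotype the labels give as WT, and from poly(A) libraries. Cells received DMSO vehicle or 0.1 μM VIC-1911, an inhibitor of the mitotic kinase AURKA, for 2 days, with 3 libraries per group. In the 7-day experiment they received vehicle, 0.1 μM VIC-1911, 1 μM olaparib, an inhibitor of the repair enzyme PARP1, or both drugs, again with 3 libraries per group and 18 libraries in all. All groups derive from 1 cell line, and the labels do not say whether the 3 libraries of a group came from separate cultures, so the p-values measure only the spread between these libraries.

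In base excision repair, a glycosylase removes a damaged base, an AP endonuclease cuts the remaining abasic site, and a polymerase and a ligase fill and seal the gap. PARP1, the target of olaparib, binds the strand break that this leaves. Mismatch repair recognizes mispaired bases after replication and excises the new strand, with EXO1 as its exonuclease. Nonhomologous end joining holds broken ends through Ku and DNA-PKcs and ligates them with LIG4 and its partner XRCC4. Polymerase theta, the product of POLQ, instead joins ends by annealing short stretches of homology and acts as a backup when homologous recombination is impaired.

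Between 3245273 and 7184420 reads per library were counted on genes at 2 days and between 4967931 and 19684208 at 7 days. Genes entered a test when 3 or more of its libraries had 10 or more counts, and all 36 genes were tested in every comparison. Changes are log2 fold changes from edgeR's quasi-likelihood test on the counts with their standard errors (SE), and a gene is said to have passed at a Benjamini-Hochberg adjusted p under 0.05 over all tested genes. Levels are FPKM, fragments scaled to gene length and sequencing depth, listed in the order of the replicate numbers. The FPKM tables of the 2 days were normalized separately, so levels are compared within a day only. At 7 days, 1 run of library names holds vehicle and VIC-1911 and a later run holds both olaparib-treated groups, so that wherever the latter are set against vehicle or against VIC-1911 alone, olaparib and run cannot be told apart. Each of the comparisons that add VIC-1911, to vehicle or to olaparib, stays inside 1 run. A single set of 3 vehicle libraries serves all 3 drug arms of 7 days. The prostate markers were at high levels in every group, with KLK3, which encodes prostate-specific antigen, at up to 2697 FPKM in a library, and 9 markers of immune, stromal, endothelial and basal cells summed to between 1.56 and 2.83 FPKM in any library, mostly from COL1A1.

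The genes that moved most were POLQ, EXO1 and NEIL3, and the 250 bases upstream of an annotated start of each are shown because these genes had the largest rises under VIC-1911 at 7 days. The sequences are from RefSeq on GRCh38.p14, 5′ to 3′ on the strand of the gene, and capitals mark a match to the E2F motif (TTTCCCGC, TTTGGCGC, TTTCGCGC, TTCCCGCC, TTGGCGGG or TTTGGCGG) or to the cell cycle homology region, CHR (TTTGAA or TTCGAA), on either strand. MSH6, shown upstream of an internal start, is added as a member with an E2F match that also rose under each single drug. The listed MSH6 start at the beginning of the gene had no E2F match. Members with an E2F match did not move alike. APEX2 also rose under each single drug, MSH3 fell under each, and DCLRE1C passed in no comparison. Some E2F spellings overlap each other, and overlapping matches are marked as 1 stretch.
POLQ, chr3:121545989-121546238, minus strand: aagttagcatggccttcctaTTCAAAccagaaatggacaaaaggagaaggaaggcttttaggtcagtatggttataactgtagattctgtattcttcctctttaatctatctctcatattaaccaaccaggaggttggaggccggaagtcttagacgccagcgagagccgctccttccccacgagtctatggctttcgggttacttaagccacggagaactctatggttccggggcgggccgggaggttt
NEIL3, chr4:177309624-177309873, plus strand: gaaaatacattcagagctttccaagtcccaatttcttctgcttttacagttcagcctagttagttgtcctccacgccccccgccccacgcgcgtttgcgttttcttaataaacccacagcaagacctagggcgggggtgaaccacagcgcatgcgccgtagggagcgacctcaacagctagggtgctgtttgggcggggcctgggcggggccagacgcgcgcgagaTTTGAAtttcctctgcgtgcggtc
EXO1, chr1:241847954-241848203, plus strand: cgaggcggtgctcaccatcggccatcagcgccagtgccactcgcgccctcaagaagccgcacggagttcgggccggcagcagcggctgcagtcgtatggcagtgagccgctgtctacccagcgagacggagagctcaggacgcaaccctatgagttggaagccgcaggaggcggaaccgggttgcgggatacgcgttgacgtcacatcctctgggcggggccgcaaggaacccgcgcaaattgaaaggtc
MSH6, chr2:47783703-47783952, plus strand: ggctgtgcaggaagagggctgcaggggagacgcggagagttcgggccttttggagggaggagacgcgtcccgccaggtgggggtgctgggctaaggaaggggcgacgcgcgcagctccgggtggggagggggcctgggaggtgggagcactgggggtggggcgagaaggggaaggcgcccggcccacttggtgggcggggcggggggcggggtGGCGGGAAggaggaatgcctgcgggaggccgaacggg
NEIL3 had a CHR match 24 bases before its start and POLQ had 1 that lay 230 bases before its start. Neither listed EXO1 start had a match to either motif. Both listed EXO1 starts are internal to the gene, which begins at position 241847986, and most of the bases shown for EXO1 lie inside it. The region before that position was mostly not searched, so EXO1 cannot be set against NEIL3 and POLQ here. Of the 36 genes, 31 had an entry in the promoter table. E2F letters stood upstream of 4 of these 31 (12.9%), namely APEX2, DCLRE1C, MSH3 and MSH6, against 6.72% of 27305 genes. CHR letters stood upstream of 5 (16.1%), the others being XRCC1, UNG and MUTYH, against 17.2% of genes. The CCAAT box (CCAAT) was found for 21 of the 31 (67.7%) against 37% of genes, a core of the NRF1 motif (GCGCATGC) for 4 (12.9%) against 3.22%, and the ETS core (CCGGAAGT) for 7 (22.6%) against 4.13%. The motifs were searched on both strands. A gene was counted when any of its listed starts had a match, and the number of starts per gene was not matched between the 31 and the 27305. The 27305 genes were not limited to expressed ones. A match of letters is not a binding site.

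After 2 days of VIC-1911, few of the 36 genes moved, and after 7 days most did, while the share of all tested genes that passed rose as well. The 2-day libraries were mostly shallower, and the part of depth was not tested. At 2 days, 1 gene rose and 3 fell, where 7.5% of all tested genes passed as higher and 7.19% as lower. At 7 days VIC-1911 raised 17 and lowered 7 of the 36, where 26.7% of tested genes passed as higher and 25.7% as lower. Olaparib raised 18 and lowered 8, against 28.1% and 25.9% of tested genes, and the combination raised 14 and lowered 9, against 28.6% and 28%. The higher genes thus made up 47.2%, 50% and 38.9% of the 36 under VIC-1911, olaparib and the combination, and the lower ones 19.4%, 22.2% and 25%. Against olaparib alone, the combination raised 1 and lowered 7 genes, where 4.55% and 6.95% of tested genes passed, and against VIC-1911 alone it raised 8 and lowered 11, where 20.7% and 22.2% passed. The median log2 fold change of the 36 genes was -0.032 at 2 days and 0.12, 0.18 and 0.12 under VIC-1911, olaparib and the combination at 7 days, and the median of all tested genes was within 0.0101 of 0 in each. In all 3 comparisons with vehicle at 7 days, 9 genes rose (ALKBH2, APEX2, APTX, MSH6, NEIL2, NTHL1, POLQ, TDG and XRCC5) and 6 fell (MBD4, MSH3, NEIL1, PMS2, POLL and TP53BP1), and 5 genes passed in no comparison (DCLRE1C, LIG4, MUTYH, NHEJ1 and SMUG1). These 3 comparisons share the same vehicle libraries, and the share of all tested genes with the same pattern was not counted.

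Few changes were large. With the added limit of a 1.5-fold change at 2 days, 1 gene, NEIL3, passed, where 2.16% of tested genes did. With a 2-fold limit at 7 days, NEIL3 and POLQ passed under VIC-1911 (6.89% of tested genes), POLQ under olaparib (7.16%), POLQ under the combination (8.54%), none in the combination against olaparib (0.382%), where no member reached a 2-fold change, and EXO1, as lower, in the combination against VIC-1911 (4.05%). The fold limit was not met in every setting. The settings include limma on log2(FPKM + 1), where the added 1 shrinks the fold change of genes at levels as low as these. Over the alternatives and with each library left out, the log2 fold change of POLQ ranged from 0.97 to 1.44 under VIC-1911, from 0.96 to 1.43 under olaparib and from 0.67 to 1.09 under the combination. That of NEIL3 ranged from 0.71 to 1.14 under VIC-1911 at 7 days and from -0.95 to -0.43 at 2 days, and that of EXO1 in the combination against VIC-1911 from -1.24 to -0.89.

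**Figure D1:**
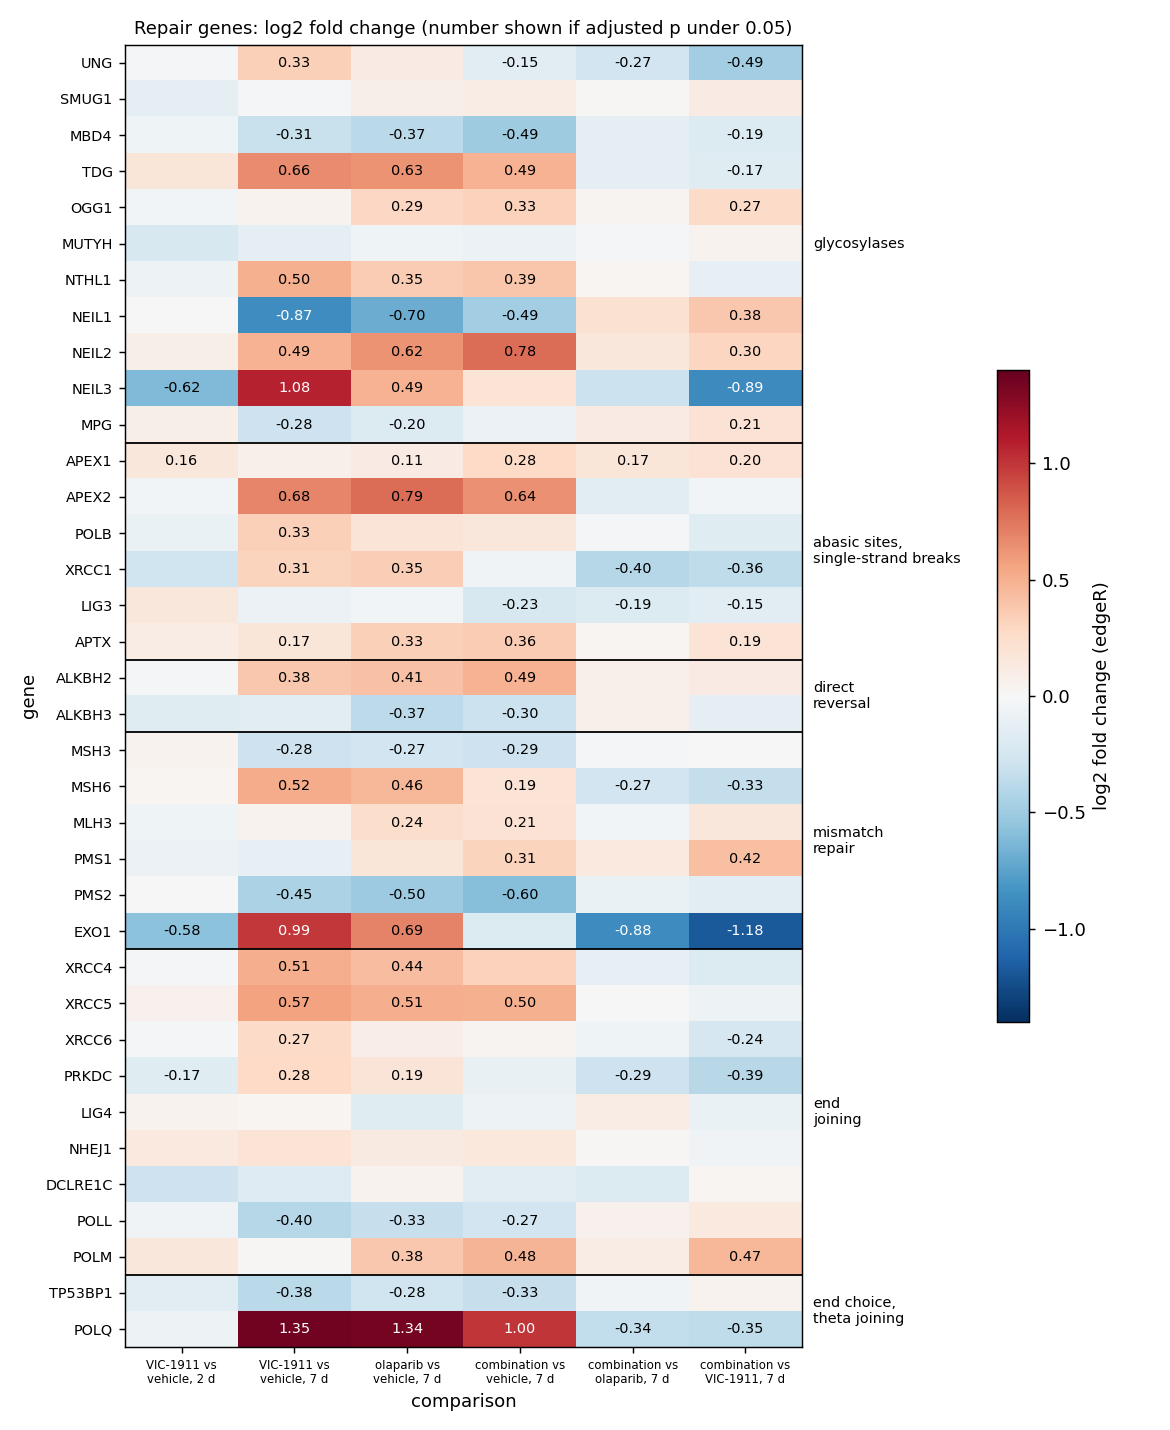
Log2 fold change of the 36 repair genes (rows, by pathway) in 6 comparisons (columns) from edgeR, red for higher and blue for lower, with the value written where the adjusted p was under 0.05. The 2-day column holds 4 written values, the columns against vehicle at 7 days hold 24, 26 and 23, and POLQ has the largest positive value in each of these 3.

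The glycosylases were divided, and the 3 NEIL enzymes, which excise oxidized bases, had different patterns. NEIL3, which acts on single-stranded and replication-linked DNA and lies on chromosome 4 from 177309874 to 177371268, was at 4.73, 3.38 and 3.65 FPKM in the 2-day vehicle libraries and at 3.1, 2.2 and 1.83 FPKM under VIC-1911. At 7 days its levels were 1.11, 1.17 and 1.08 FPKM with vehicle, 2.47, 2.67 and 2.29 under VIC-1911, 1.21, 1.71 and 1.67 under olaparib, and 1.19, 1.51 and 1.24 with both drugs. The 2-day groups did not overlap, with VIC-1911 lower, and at 7 days the order turned, with every VIC-1911 library above every other. NEIL3 fell at 2 days (log2 fold change -0.62, SE 0.20, adjusted p = 0.0318, edgeR) and rose under VIC-1911 at 7 days (1.08, SE 0.16, adjusted p = 2.05e-06) and under olaparib (0.49, SE 0.17, adjusted p = 0.0182), and its value in the combination was 0.19 (SE 0.18, adjusted p = 0.369). The 2-day call was lost without vehicle replicate 1 or 3 or VIC-1911 replicate 2 or 3 (adjusted p = 0.0514 to 0.19) and with DESeq2 (0.118), and the olaparib call without vehicle replicate 1 or olaparib replicate 2 or 3 (0.0584 to 0.0793) and with DESeq2 (0.064). Against VIC-1911 alone, the combination lowered NEIL3, with a log2 fold change of -0.89 (SE 0.15, adjusted p = 2.79e-05).

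NEIL1, on chromosome 15 from 75347039 to 75357115, fell in all 3 comparisons with vehicle at 7 days. Its FPKM were 7.75, 9.01 and 7.17 in the 7-day vehicle libraries, 4.62, 5.07 and 4.16 under VIC-1911, 6.03, 4.89 and 4.84 under olaparib, and 5.88, 5.51 and 5.96 with both drugs, so that all 9 treated libraries lay below the 3 vehicle libraries. The log2 fold changes were -0.87 (SE 0.10, adjusted p = 2.12e-08), -0.70 (SE 0.10, adjusted p = 7.09e-07) and -0.49 (SE 0.094, adjusted p = 6.44e-05), respectively (edgeR). At 2 days NEIL1 was at 2.12, 2.44 and 2.88 FPKM with vehicle and 2.25, 2.08 and 2.7 with VIC-1911, groups that overlapped. Exons of MAN2C1 on the other strand cover 26.4% of the exon bases of NEIL1, and the strand setting of the counting is not given in the sources used here, so its counts may include reads of that gene. NEIL2 rose in all 3 comparisons with vehicle, and most under the combination. It was at 13.7, 13.4 and 12.2 FPKM with vehicle, 18.2, 19.8 and 19.1 under VIC-1911, 21, 20.2 and 20.7 under olaparib, and 23.8, 21.8 and 22.5 with both drugs. The combination libraries stood above all vehicle, VIC-1911 and olaparib libraries, with log2 fold changes of 0.78 (SE 0.058, adjusted p = 1.38e-12) against vehicle and 0.30 (SE 0.055, adjusted p = 7.18e-05) against VIC-1911, and 0.16 (SE 0.055, adjusted p = 0.0601) against olaparib (edgeR). At 2 days NEIL2 was at 21.3, 20.5 and 19.6 FPKM with vehicle and 21.3, 22.1 and 19.8 with VIC-1911.

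TDG, which removes thymine from G:T pairs and oxidized methylcytosines during DNA demethylation, lies on chromosome 12 from 103965872 to 103988874 and rose under every 7-day treatment. It was at 13, 11.5 and 12.1 FPKM with vehicle, 20.6, 19.2 and 19.8 under VIC-1911, 20.4, 18 and 19.4 under olaparib, and 17, 17.3 and 17.1 with both drugs. No treated library overlapped vehicle, and the log2 fold changes were 0.66 (SE 0.06, adjusted p = 1.8e-10), 0.63 (SE 0.061, adjusted p = 5.58e-10) and 0.49 (SE 0.06, adjusted p = 4.98e-08) (edgeR). At 2 days TDG was at 22.5, 23.7 and 22.3 FPKM with vehicle and 25.1, 24.5 and 26.4 with VIC-1911, which did not overlap but did not pass (0.17, SE 0.063, adjusted p = 0.0639), except without vehicle replicate 2. MBD4, the other glycosylase for G:T pairs at methylated sites, fell. Its FPKM were 10.3, 9.38 and 10.3 with vehicle, 8.4, 8.39 and 8.04 under VIC-1911, 8.32, 7.67 and 7.58 under olaparib, and 6.47, 7.22 and 7.54 with both drugs. Each treated group lay below vehicle, with log2 fold changes of -0.31 (SE 0.073, adjusted p = 0.000758), -0.37 (SE 0.074, adjusted p = 9.39e-05) and -0.49 (SE 0.073, adjusted p = 1.24e-06) from edgeR. At 2 days MBD4 was at 8.58, 10.4 and 8.65 FPKM with vehicle and 8.6, 8.91 and 8.72 with VIC-1911.

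MPG, which excises alkylated purines and is the glycosylase with the highest mean level, was at 42.2, 38.8 and 43.8 FPKM with vehicle, 35.4, 33.3 and 36.3 under VIC-1911, 35.4, 37.7 and 36.1 under olaparib, and 43.5, 35.8 and 37.8 with both drugs. Both single drugs lowered it, with log2 fold changes of -0.28 (SE 0.065, adjusted p = 0.000501) and -0.20 (SE 0.065, adjusted p = 0.0121), and the combination had a value of -0.079 (SE 0.063, adjusted p = 0.295) (edgeR), which was -0.18 (adjusted p = 0.0182) without combination replicate 1 and -0.023 (0.783) without replicate 2. At 2 days MPG was at 28.4, 31.2 and 33.2 FPKM with vehicle and 32.9, 36.3 and 31.9 with VIC-1911. Exons of NPRL3 on the other strand cover 30.1% of its exon bases. UNG, the main uracil glycosylase, rose under VIC-1911 at 7 days (0.33, SE 0.059, adjusted p = 2.13e-05), fell slightly under the combination (-0.15, SE 0.06, adjusted p = 0.0287) and had a value of 0.11 (SE 0.06, adjusted p = 0.116) under olaparib (edgeR). The fall of UNG under the combination was not kept without vehicle replicate 1 (adjusted p = 0.135) or combination replicate 3 (0.139), with library size alone (0.137), with limma on log2(FPKM + 0.1) (0.0516) or log2(FPKM + 1) (0.0527), or with the 2 groups fitted alone (0.0563). NTHL1, which removes oxidized pyrimidines, rose by 0.50 (SE 0.085, adjusted p = 1.27e-05), 0.35 (SE 0.086, adjusted p = 0.000924) and 0.39 (SE 0.084, adjusted p = 0.00026) under VIC-1911, olaparib and the combination. OGG1, the glycosylase for 8-oxoguanine, rose under olaparib (0.29, SE 0.10, adjusted p = 0.0213) and the combination (0.33, SE 0.10, adjusted p = 0.00768), and both calls were lost without vehicle replicate 2 (adjusted p = 0.275 and 0.155). The olaparib call of OGG1 was also lost without olaparib replicate 3 (0.0641) and with DESeq2 (0.066), and CAMK1 exons on the other strand cover 24.9% of its exon bases. MUTYH, which removes adenine opposite 8-oxoguanine, and SMUG1, a second uracil glycosylase, passed in no comparison, with log2 fold changes of -0.22 to 0.054 and -0.12 to 0.11.

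**Figure D2:**
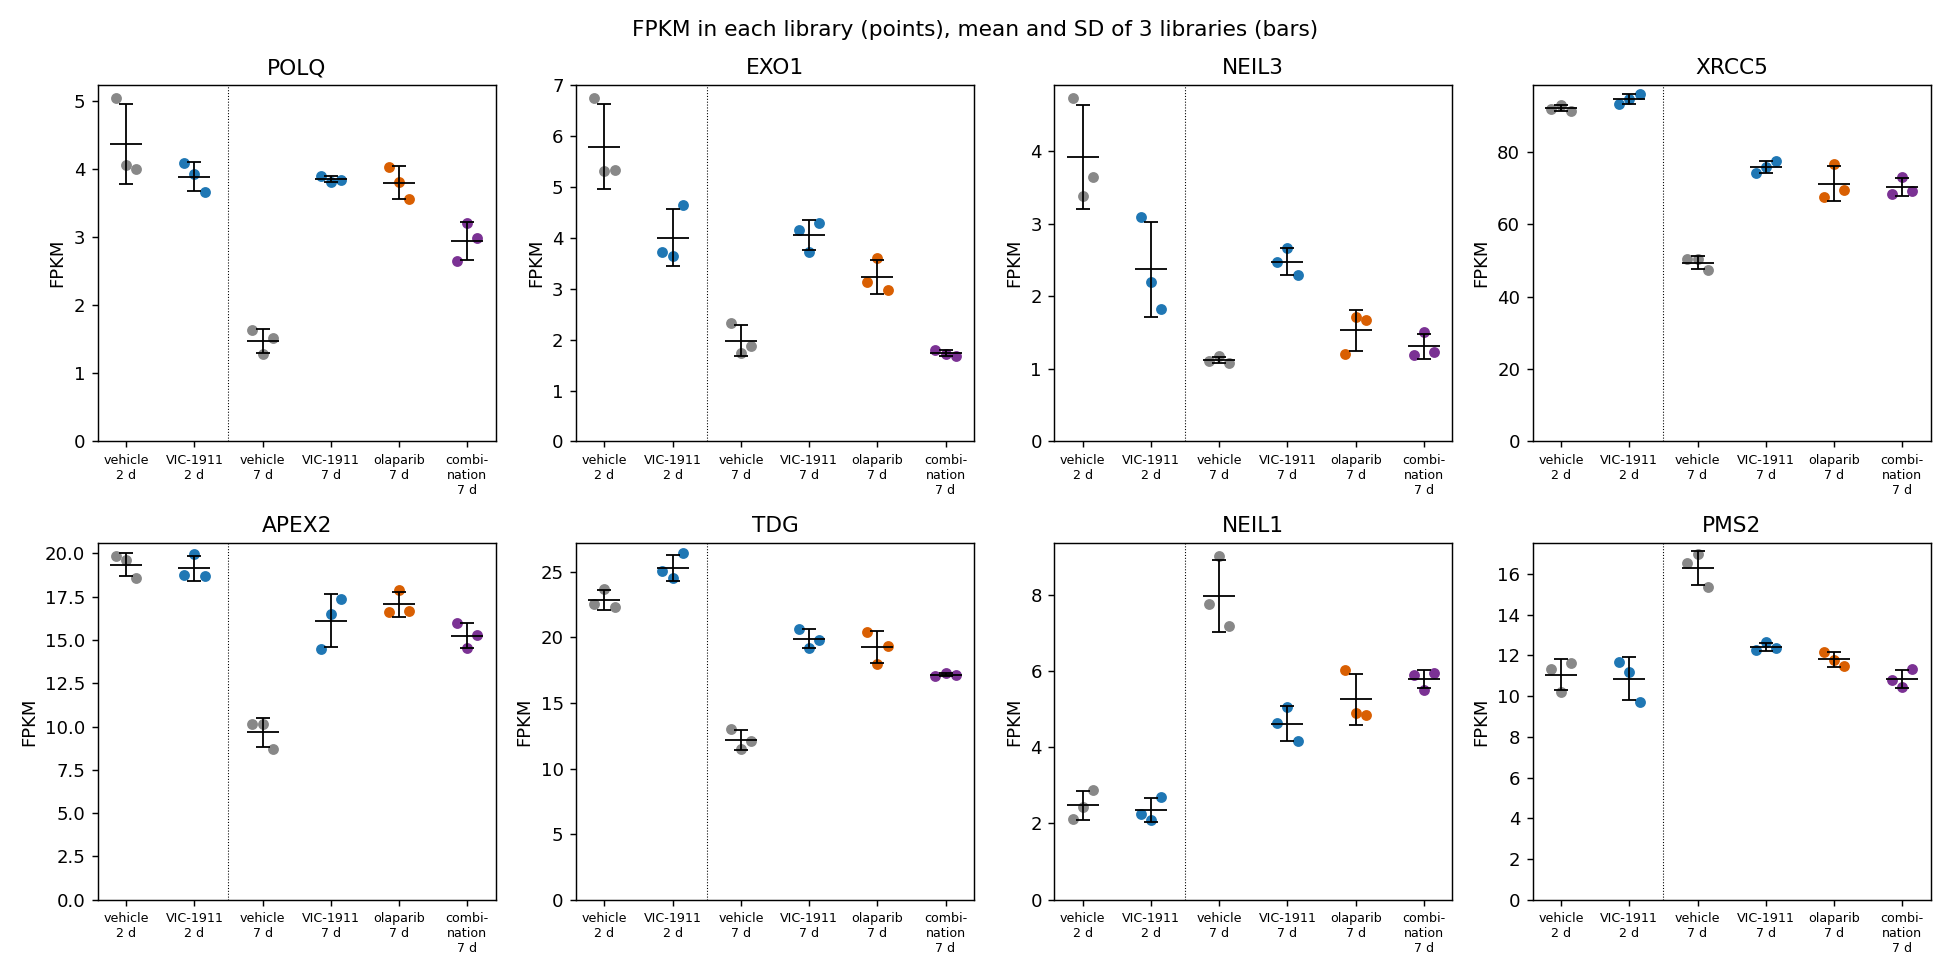
FPKM of 8 repair genes (panels) in each of 18 libraries (points), with the mean and SD of the 3 libraries of each group (bars). A dotted line separates 2-day from 7-day groups, whose tables were normalized separately. At 7 days the first 6 genes except EXO1 have all treated libraries above vehicle, and NEIL1 and PMS2 have all treated libraries below it.

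Among the genes that act after base removal, APEX2 moved most. APEX2, a nuclease that clears blocked 3′ ends and lies on chromosome X from 55000363 to 55009057, was at 10.2, 10.1 and 8.71 FPKM with vehicle, 14.4, 16.5 and 17.4 under VIC-1911, 16.6, 17.9 and 16.7 under olaparib, and 16, 14.5 and 15.3 with both drugs. Every treated library exceeded every vehicle library, with log2 fold changes of 0.68 (SE 0.076, adjusted p = 1.08e-08), 0.79 (SE 0.076, adjusted p = 5.37e-10) and 0.64 (SE 0.075, adjusted p = 2.33e-08) (edgeR). At 2 days it was at 19.9, 19.6 and 18.6 FPKM with vehicle and 18.7, 20 and 18.7 with VIC-1911, and the groups overlapped. APEX1, the main AP endonuclease, was the most abundant of the 6 and changed little. Its FPKM were 106, 114 and 120.4 with vehicle and 121, 130.3 and 124 with VIC-1911 at 2 days. At 7 days they were 99.8, 99.8 and 101 with vehicle, 108, 109 and 110.0 under VIC-1911, 103, 115 and 109 under olaparib, and 129, 119.5 and 116 with both drugs. APEX1 was the single gene of the 36 that rose at 2 days (0.16, SE 0.053, adjusted p = 0.0349, edgeR) and the single one that rose in the combination against olaparib (0.17, SE 0.046, adjusted p = 0.0171), and its rise against vehicle under the combination was 0.28 (SE 0.046, adjusted p = 8.03e-06). The 2-day call was lost without vehicle replicate 1 or VIC-1911 replicate 2 or 3 (adjusted p = 0.0584 to 0.202) and in 6 other settings (0.0552 to 0.0987), and the call against olaparib without olaparib replicate 1 or 3 or combination replicate 1 (0.0712 to 0.117) and with limma on the FPKM values (0.0536 to 0.0611). The call of APEX1 under olaparib against vehicle (0.11, SE 0.047, adjusted p = 0.047) was lost without any 1 of the vehicle libraries or without olaparib replicate 2 or 3 (0.0957 to 0.255), with DESeq2 (0.0836) and with the 2 groups fitted alone (0.0658).

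XRCC1, the scaffold that PARP1 activity brings to single-strand breaks, had mean FPKM of 4.85 ± 1.06 with vehicle, 5.92 ± 0.218 under VIC-1911, 6.04 ± 0.314 under olaparib, and 4.47 ± 0.273 with both drugs (SD, n = 3). It passed as higher under VIC-1911 (0.31, SE 0.11, adjusted p = 0.0249) and olaparib (0.35, SE 0.11, adjusted p = 0.0111), but vehicle replicate 3, at 6.04 FPKM, lay within the range of the treated libraries. Both calls were lost without vehicle replicate 2 (adjusted p = 0.314 and 0.185, edgeR), and that under VIC-1911 also without vehicle replicate 1 or VIC-1911 replicate 1 or 3 (0.0533 to 0.0881) and with DESeq2 (0.0639). In the combination XRCC1 was lower than under olaparib (-0.40, SE 0.11, adjusted p = 0.0165) and VIC-1911 (-0.36, SE 0.11, adjusted p = 0.00977), calls that were lost without combination replicate 3 (0.0877 and 0.052) and, against olaparib, without olaparib replicate 2 (0.0717). APTX, which removes AMP from failed ligations, rose under VIC-1911 (0.17, SE 0.066, adjusted p = 0.0331), olaparib (0.33, SE 0.065, adjusted p = 8.84e-05) and the combination (0.36, SE 0.064, adjusted p = 1.97e-05). The first of these APTX calls was lost without vehicle replicate 1 or 2 or VIC-1911 replicate 1 or 3 (0.0731 to 0.19), with DESeq2 (0.0681) and with upper-quartile normalization (0.0604). POLB, the gap-filling polymerase, rose under VIC-1911 at 7 days (0.33, SE 0.083, adjusted p = 0.00127) and had values of 0.18 (SE 0.084, adjusted p = 0.0741) under olaparib and 0.15 (SE 0.082, adjusted p = 0.112) under the combination. LIG3, the ligase that partners XRCC1, fell under the combination (-0.23, SE 0.058, adjusted p = 0.0013), and 29.1% of its exon bases lie under RFFL exons of the other strand.

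The direct-reversal enzymes ALKBH2 and ALKBH3, which strip alkyl groups from bases, moved in opposite directions. ALKBH2 was at 24.2, 22 and 21.7 FPKM with vehicle, 30, 30.2 and 31.1 under VIC-1911, 29.1, 32 and 30.2 under olaparib, and 32.9, 33 and 30 with both drugs. All treated libraries stood above vehicle, with log2 fold changes of 0.38 (SE 0.065, adjusted p = 1.59e-05), 0.41 (SE 0.066, adjusted p = 4.21e-06) and 0.49 (SE 0.064, adjusted p = 1.59e-07) (edgeR). At 2 days ALKBH2 was at 30.4, 31.6 and 34 FPKM with vehicle and 30.5, 30.6 and 31.8 with VIC-1911, which overlapped. ALKBH3 fell under olaparib (-0.37, SE 0.08, adjusted p = 0.000267) and the combination (-0.30, SE 0.078, adjusted p = 0.00181) and had a value of -0.16 (SE 0.079, adjusted p = 0.0821) under VIC-1911.

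In mismatch repair, the exonuclease EXO1 rose with each single drug at 7 days but not with both. EXO1, on chromosome 1 from 241847986 to 241889939, was at 2.33, 1.74 and 1.87 FPKM with vehicle, 4.16, 3.72 and 4.3 under VIC-1911, 3.13, 3.6 and 2.97 under olaparib, and 1.8, 1.72 and 1.68 with both drugs. The VIC-1911 and olaparib libraries all exceeded vehicle, whereas the combination libraries overlapped vehicle and lay below both single drugs. The log2 fold changes were 0.99 (SE 0.12, adjusted p = 2.79e-08) under VIC-1911, 0.69 (SE 0.12, adjusted p = 1.59e-05) under olaparib and -0.19 (SE 0.13, adjusted p = 0.203) under the combination (edgeR). The combination was lower than olaparib, at -0.88 (SE 0.12, adjusted p = 6.14e-06), and lower than VIC-1911, at -1.18 (SE 0.12, adjusted p = 1.53e-09). At 2 days EXO1 was at 6.75, 5.3 and 5.32 FPKM with vehicle and 3.72, 3.64 and 4.64 FPKM with VIC-1911. It fell (-0.58, SE 0.13, adjusted p = 0.00147), and it was the 1 member called at 2 days that kept its call in every alternative and with each library left out.

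PMS2, an endonuclease subunit that pairs with MLH proteins and lies on chromosome 7 from 5970925 to 6009106, fell under each treatment at 7 days. It was at 16.5, 17 and 15.3 FPKM with vehicle, 12.2, 12.6 and 12.4 under VIC-1911, 12.2, 11.8 and 11.5 under olaparib, and 10.8, 10.5 and 11.3 with both drugs. The 9 treated libraries lay below the vehicle libraries, with log2 fold changes of -0.45 (SE 0.06, adjusted p = 3.19e-07), -0.50 (SE 0.061, adjusted p = 4.49e-08) and -0.60 (SE 0.06, adjusted p = 1.03e-09) (edgeR). At 2 days PMS2 was at 11.3, 10.2 and 11.6 FPKM with vehicle and 11.7, 11.2 and 9.69 with VIC-1911, with overlap. Close copies of PMS2 exist in the genome and the handling of reads shared with them is not given in the sources used here, so its values are uncertain. MSH6, a mismatch recognition subunit, had mean FPKM of 6.24 ± 0.313 with vehicle, 9.21 ± 0.462 under VIC-1911, 8.85 ± 0.959 under olaparib, and 7.1 ± 0.385 with both drugs (SD, n = 3). It rose under VIC-1911 (0.52, SE 0.072, adjusted p = 4.05e-07) and olaparib (0.46, SE 0.073, adjusted p = 3.69e-06), and less under the combination (0.19, SE 0.072, adjusted p = 0.0266), where it was lower than under olaparib (-0.27, SE 0.07, adjusted p = 0.00966) and VIC-1911 (-0.33, SE 0.069, adjusted p = 0.000242). The rise of MSH6 under the combination was lost without vehicle replicate 1 or 2 or combination replicate 2 (adjusted p = 0.0571 to 0.19), with DESeq2 (0.0559) and with limma on the FPKM values (0.0568 to 0.0714), and its fall against olaparib without olaparib replicate 1 (0.0509) or combination replicate 3 (0.0629). Exons of FBXO11 on the other strand cover 22.7% of the exon bases of MSH6.

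MSH3, the other mismatch recognition subunit, fell under VIC-1911 (-0.28, SE 0.087, adjusted p = 0.00704), olaparib (-0.27, SE 0.087, adjusted p = 0.0104) and the combination (-0.29, SE 0.085, adjusted p = 0.00435). The MSH3 calls under VIC-1911 and olaparib were lost without vehicle replicate 2 (adjusted p = 0.0552 and 0.0759, edgeR) and with limma on the FPKM values (0.0727 to 0.113), and that under olaparib also without olaparib replicate 2 or 3 (0.0608 and 0.0662). PMS1, a MutL-family subunit, rose under the combination against vehicle (0.31, SE 0.094, adjusted p = 0.00559) and against VIC-1911 (0.42, SE 0.095, adjusted p = 0.000553), and its value under VIC-1911 alone was -0.11 (SE 0.10, adjusted p = 0.357). MLH3, a partner in MLH complexes, rose under olaparib (0.24, SE 0.069, adjusted p = 0.00405) and the combination (0.21, SE 0.068, adjusted p = 0.0107), the latter call being lost without vehicle replicate 2 (0.066) or combination replicate 3 (0.0504).

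POLQ showed the largest rise of the 36 genes in each comparison with vehicle at 7 days. POLQ lies on chromosome 3 from 121431431 to 121545988. Its FPKM were 1.63, 1.28 and 1.52 with vehicle, 3.9, 3.81 and 3.85 under VIC-1911, 4.03, 3.82 and 3.56 under olaparib, and 2.65, 3.21 and 2.99 with both drugs. The VIC-1911 and olaparib libraries overlapped each other, the combination libraries lay between them and vehicle, and every treated library exceeded every vehicle library. The log2 fold changes were 1.35 (SE 0.088, adjusted p = 1.12e-13), 1.34 (SE 0.088, adjusted p = 1.28e-13) and 1.00 (SE 0.089, adjusted p = 7.91e-11), respectively (edgeR). Against the single drugs, the combination was lower, with log2 fold changes of -0.34 (SE 0.078, adjusted p = 0.00362) from olaparib and -0.35 (SE 0.077, adjusted p = 0.000503) from VIC-1911, and the former call was lost with limma on log2(FPKM + 0.1) (adjusted p = 0.055). At 2 days POLQ was at 5.05, 4.06 and 4.01 FPKM with vehicle and 4.09, 3.93 and 3.66 FPKM with VIC-1911, which overlapped (-0.071, SE 0.094, adjusted p = 0.683). TP53BP1, which protects broken ends from resection and so favors nonhomologous joining, fell. It was at 7.85, 8.6 and 9.13 FPKM with vehicle, 6.5, 7.43 and 6.28 under VIC-1911, 8.02, 6.67 and 6.97 under olaparib, and 6.25, 7.2 and 6.94 with both drugs. Olaparib replicate 1 lay within the vehicle range and the other treated libraries below it, and the log2 fold changes were -0.38 (SE 0.075, adjusted p = 9.91e-05), -0.28 (SE 0.075, adjusted p = 0.00251) and -0.33 (SE 0.073, adjusted p = 0.000384) (edgeR). At 2 days TP53BP1 was at 6.71, 6.72 and 7.93 FPKM with vehicle and 6.93, 7 and 6.06 with VIC-1911. Exons of TUBGCP4 on the other strand cover 28.8% of its exon bases.

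The Ku subunits XRCC5 (Ku80) and XRCC6 (Ku70), which form 1 ring around broken ends, passed in different comparisons. XRCC5, on chromosome 2 from 216109348 to 216206293, was at 50.5, 50.4 and 47.4 FPKM with vehicle, 74.2, 75.7 and 77.4 under VIC-1911, 67.5, 76.7 and 69.4 under olaparib, and 68.4, 73.1 and 69.3 with both drugs. All 9 treated libraries exceeded vehicle, and the log2 fold changes were 0.57 (SE 0.047, adjusted p = 2.29e-11), 0.51 (SE 0.047, adjusted p = 2.39e-10) and 0.50 (SE 0.047, adjusted p = 2.42e-10) (edgeR). At 2 days XRCC5 was at 91.7, 93 and 91.4 FPKM with vehicle and 93.3, 94.8 and 96.1 with VIC-1911, a small gap that did not pass (0.058, SE 0.045, adjusted p = 0.432). XRCC6, on chromosome 22 from 41621295 to 41664041, was the most abundant of the 36 genes. Its FPKM at 7 days were 133, 126 and 132 with vehicle, 159.5, 162 and 166 under VIC-1911, 138, 146 and 139 under olaparib, and 136, 136 and 131 with both drugs. XRCC6 rose under VIC-1911 (0.27, SE 0.041, adjusted p = 1.79e-06) and was at 0.094 (SE 0.041, adjusted p = 0.0544) under olaparib and 0.034 (SE 0.041, adjusted p = 0.489) under the combination (edgeR). The olaparib value of XRCC6 passed under 5 of the alternatives, among them upper-quartile normalization and library size alone. At 2 days XRCC6 was at 212, 217 and 216 FPKM with vehicle and 205, 215 and 204 with VIC-1911.

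PRKDC encodes DNA-PKcs, the kinase that Ku recruits. Its FPKM were 32.5, 35.4 and 34.5 with vehicle, 44, 44.2 and 40.4 under VIC-1911, 40.3, 37.9 and 39.7 under olaparib, and 27.3, 35.9 and 32.4 with both drugs. The single-drug libraries all exceeded vehicle (0.28, SE 0.063, adjusted p = 0.00034 and 0.19, SE 0.063, adjusted p = 0.0139, edgeR), the combination had a value of -0.10 (SE 0.063, adjusted p = 0.171), and it was lower than olaparib (-0.29, SE 0.063, adjusted p = 0.00242) and VIC-1911 (-0.39, SE 0.062, adjusted p = 1.02e-05). PRKDC is longer than 98.4% of genes, and combination replicate 1 was lower in long against short genes (-0.142 on the log2 scale) than replicates 2 and 3 (0.119 and 0.0224). The value of PRKDC under the combination against vehicle was -0.0099 (adjusted p = 0.887, edgeR) without combination replicate 1 and -0.19 (0.00587) without replicate 2. Over 8672 well-expressed genes the combination against olaparib had a median log2 fold change of -0.0729 for the longest and 0.0386 for the shortest of them (the top and bottom quintiles of length), and the part of gene length in the PRKDC values was not tested. POLQ is longer than 94% of genes, MLH3 than 91.8%, DCLRE1C than 88.3% and TP53BP1 than 85.2%. The part of length in their values was not tested either. At 2 days PRKDC was at 39, 29.4 and 37 FPKM with vehicle and 32.9, 29.8 and 30.4 with VIC-1911, which overlapped, and its call as lower (-0.17, SE 0.059, adjusted p = 0.0426) was lost without vehicle replicate 1 or 3 or VIC-1911 replicate 2 or 3 (adjusted p = 0.17 to 0.342), with DESeq2 (0.483) and with limma on the FPKM values (0.233 to 0.253). The olaparib call was lost without vehicle replicate 1 (0.0999) or olaparib replicate 1 (0.0526) and with DESeq2 (0.108).

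Of the polymerases that fill gaps during end joining, POLL fell and POLM rose. POLL was at 13.1, 13 and 12.8 FPKM with vehicle, 9.99, 10.7 and 9.78 under VIC-1911, 9.4, 10.4 and 11.1 under olaparib, and 11.8, 9.91 and 10.5 with both drugs. All treated libraries were below vehicle, with log2 fold changes of -0.40 (SE 0.071, adjusted p = 2.19e-05), -0.33 (SE 0.071, adjusted p = 0.000266) and -0.27 (SE 0.069, adjusted p = 0.00147) (edgeR). At 2 days POLL was at 10.6, 9.01 and 10.9 FPKM with vehicle and 9.21, 8.73 and 9.8 with VIC-1911. POLM rose under olaparib (0.38, SE 0.084, adjusted p = 0.000363) and the combination (0.48, SE 0.081, adjusted p = 1.01e-05), with a value of 0.013 (SE 0.086, adjusted p = 0.908) under VIC-1911. XRCC4, the partner of ligase IV, passed as higher under VIC-1911 (0.51, SE 0.18, adjusted p = 0.0171) and olaparib (0.44, SE 0.18, adjusted p = 0.0397), with vehicle libraries spread from 1.41 to 2.59 FPKM. Without vehicle replicate 1 these XRCC4 values were 0.29 (adjusted p = 0.191) and 0.22 (0.329), and the olaparib call was also lost without vehicle replicate 2 or olaparib replicate 1 or 3 (0.0638 to 0.172) and in 5 other settings (0.0539 to 0.0997), the replicate number as a block (0.0626) among them. LIG4, the ligase of this pathway, NHEJ1 (XLF) and DCLRE1C (Artemis, the nuclease that opens hairpins) passed in no comparison, with log2 fold changes between -0.29 and 0.19.

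For most of these genes the 2 drugs together did not give the sum of their single effects. The interaction is the log2 fold change of the combination against olaparib less that of VIC-1911 against vehicle, and it compares differences that were each measured within 1 run of library names. It was negative and passed for 16 of the 36 genes and positive and passed for 5, where 22.9% and 21% of tested genes passed. All 5 positive ones (NEIL1, POLL, MPG, PMS2 and TP53BP1) were lower under both single drugs, and all 16 negative ones had positive values under both. The vehicle libraries enter the interaction with the opposite sign to that in both single-drug values, so such opposite signs are favored by construction. How many of all tested genes have this pattern was not counted. The largest were those of EXO1 (-1.87, SE 0.17, adjusted p = 1.89e-10), POLQ (-1.69, SE 0.12, adjusted p = 9.33e-13) and NEIL3 (-1.38, SE 0.23, adjusted p = 1.6e-05), followed by NEIL1 (1.08, SE 0.14, adjusted p = 3.7e-07). POLQ reached a log2 fold change of 1.00 under the combination where the sum was 2.69, and EXO1 was at -0.19 where the sum was 1.68. XRCC5 was at 0.57, 0.51 and 0.50 under VIC-1911, olaparib and the combination, with an interaction of -0.58 (SE 0.066, adjusted p = 2.55e-08). The calls of POLB (without olaparib replicate 3, adjusted p = 0.0512), TP53BP1 (without VIC-1911 replicate 3 or olaparib replicate 2, 0.0565 and 0.0552, and with limma, 0.119 to 0.136) and XRCC4 (without each of 9 libraries in turn, 0.0521 to 0.173) were lost. Both single-drug values in the sum use the same vehicle libraries.

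**Figure D3:**
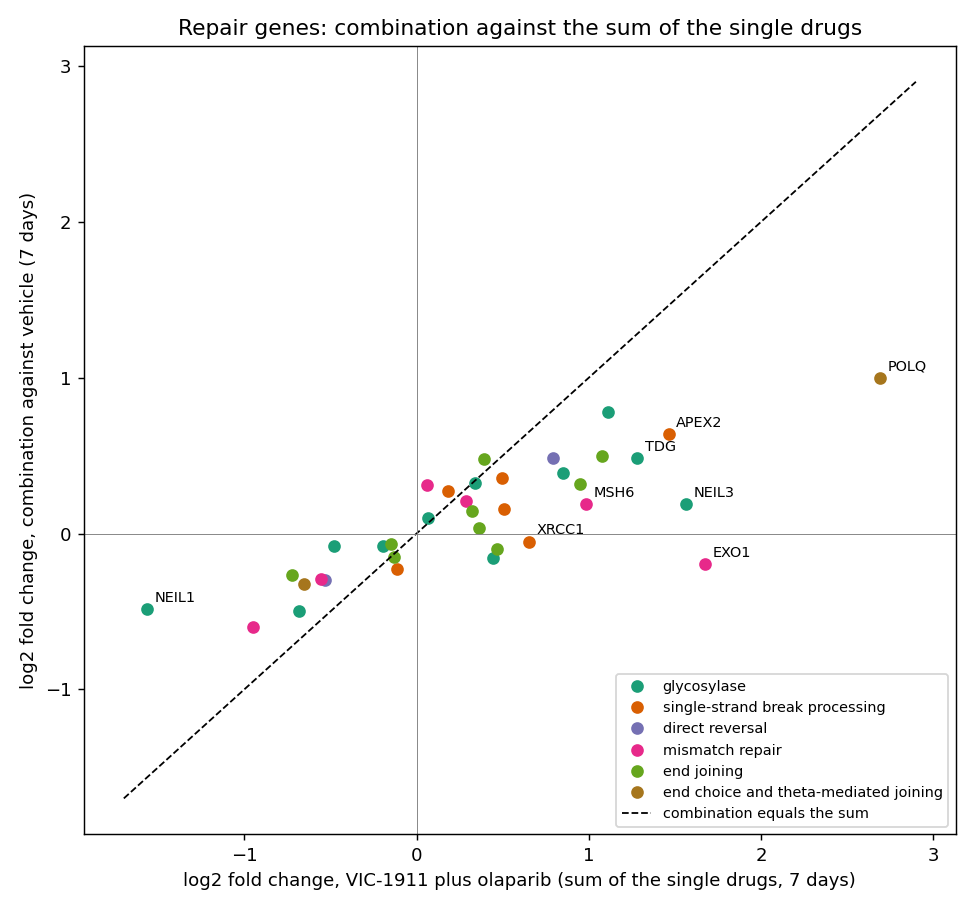
Log2 fold change of the combination against vehicle (vertical axis) plotted against the sum of the log2 fold changes of VIC-1911 and olaparib (horizontal axis) at 7 days, with 1 point per repair gene, colored by pathway. On the dashed line the combination equals the sum. POLQ, EXO1, NEIL3, APEX2, TDG, MSH6 and XRCC1 lie below the line and NEIL1 above it.

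The response to VIC-1911 differed between the days for 20 of the 36 genes. The difference, 7 days less 2 days, was positive and passed for 15 and negative for 5, where 14.6% and 14.2% of tested genes passed. It was largest for NEIL3 (1.69, SE 0.27, adjusted p = 2.26e-06), EXO1 (1.55, SE 0.18, adjusted p = 1.4e-09) and POLQ (1.41, SE 0.13, adjusted p = 3.45e-12), and most negative for NEIL1 (-0.88, SE 0.23, adjusted p = 0.00221, edgeR). NEIL3 and EXO1 changed direction, from lower to higher, as did PRKDC, whereas POLQ, APEX2 and XRCC5 passed at 7 days only. Of these 3 falls at 2 days, that of NEIL3 lost its call in 5 settings and that of PRKDC in 8, so their change of direction is uncertain. The differences of LIG3, POLB, POLL and XRCC1 lost their calls without 2-day vehicle replicate 2 (0.0636 to 0.195), and those of LIG3, POLL and XRCC1 without other libraries too. The 2 days were separate experiments with separate vehicle groups and library names, so duration and experiment cannot be told apart. Each effect is set against the vehicle of its own day, so the vehicle levels enter the difference. Vehicle means of POLQ, EXO1 and NEIL3 were 4.38, 5.79 and 3.92 FPKM at 2 days. At 7 days they were 1.48, 1.98 and 1.12 FPKM. NEIL1 was at 2.48 and 7.97 FPKM. The FPKM of the days were normalized separately, and the part of the vehicle levels was not tested.

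**Figure D4:**
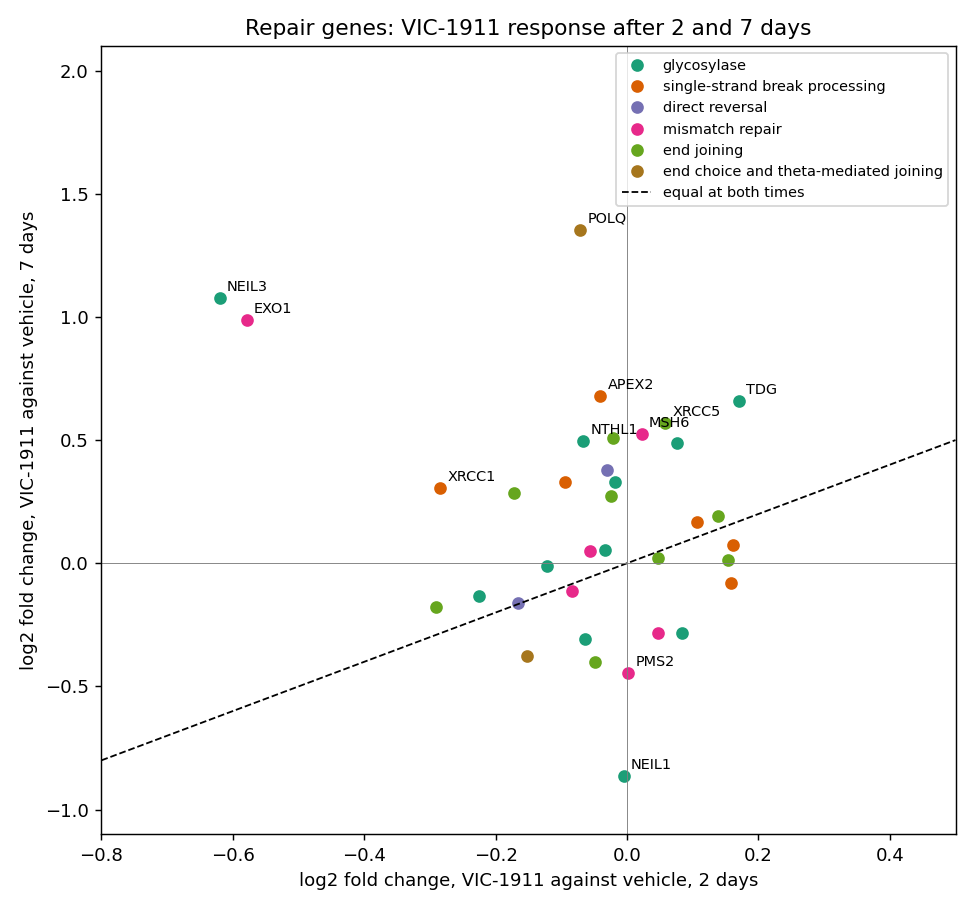
Log2 fold change under VIC-1911 after 7 days (vertical axis) against that after 2 days (horizontal axis), with 1 point per repair gene, colored by pathway, and a dashed line where both are equal. NEIL3 and EXO1 lie at the upper left, lower at 2 days and higher at 7, and POLQ and NEIL1 differ from 0 on the vertical axis only.

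A list of 30 genes of DNA replication and mitosis moved with several of these genes. Its summed FPKM were 1002 to 1019 with vehicle and 847.6 to 869.2 with VIC-1911 at 2 days, and 300.8 to 382 with vehicle, 784.8 to 821.3 under VIC-1911, 497.4 to 558.5 under olaparib and 350.1 to 376.2 under the combination at 7 days. Of the 30 genes, 18 fell at 2 days, 30 rose under VIC-1911 at 7 days, 28 rose under olaparib, and 11 rose and 4 fell under the combination, with median log2 fold changes of -0.27, 1.26, 0.55 and 0.087. The 7-day means of EXO1 and NEIL3 were highest under VIC-1911 and next under olaparib, as were the list sums, but the mean of EXO1 was lower under the combination (1.74 FPKM) than with vehicle (1.98) and that of NEIL3 was higher (1.31 and 1.12). The POLQ levels under VIC-1911 and olaparib overlapped. Under the combination POLQ had a log2 fold change of 1.00, which lay inside the range of the list's genes (-0.62 to 1.22). The part of proliferation in these values was not tested, and fewer dividing cells and less RNA per dividing cell cannot be told apart in bulk RNA.

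**Figure D5:**
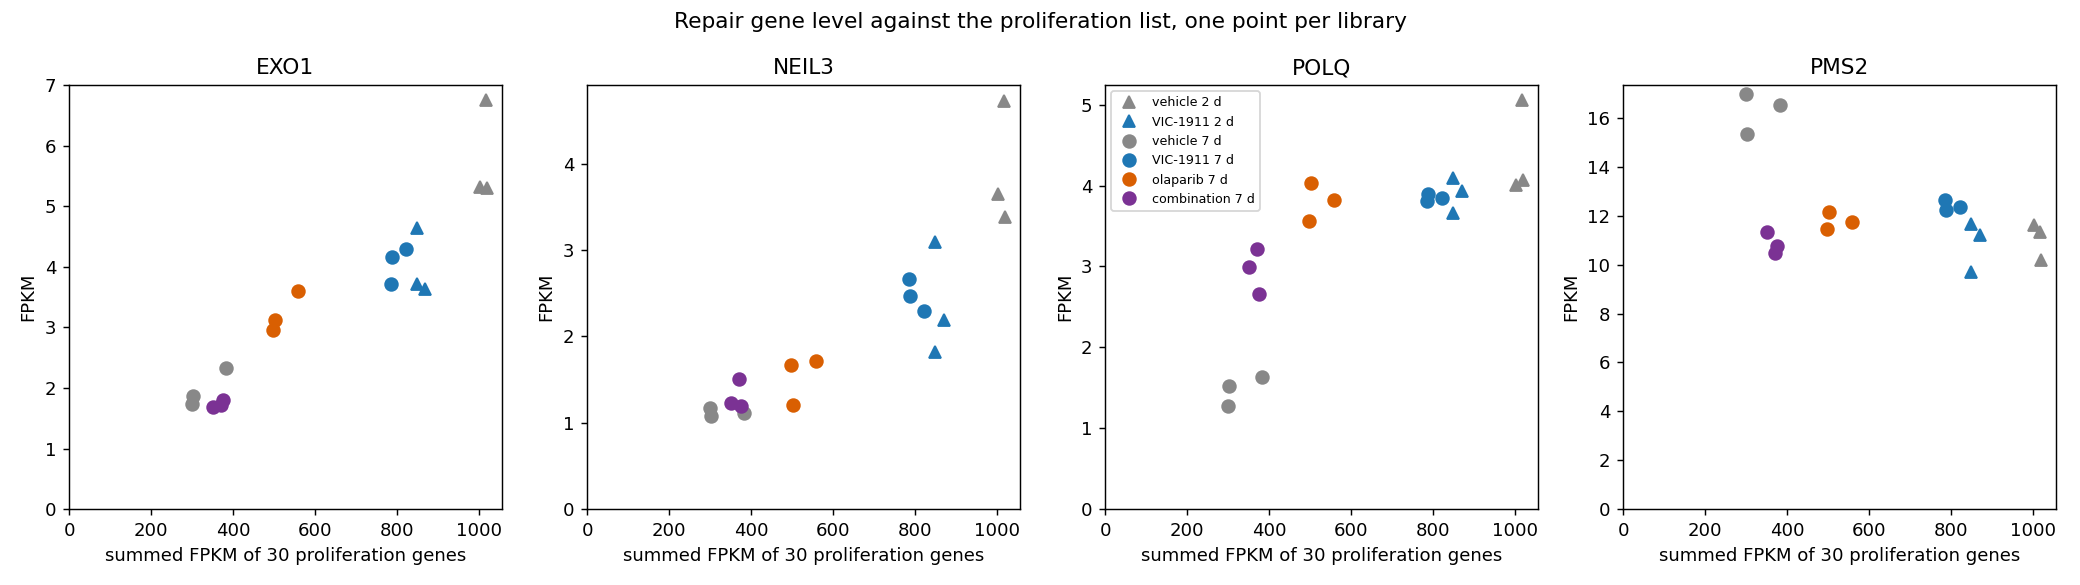
FPKM of EXO1, NEIL3, POLQ and PMS2 (vertical axes, 1 panel each) against the summed FPKM of 30 replication and mitosis genes (horizontal axes), with 1 point per library, triangles for 2 days and circles for 7 days. At similar sums, the combination libraries lie with the vehicle libraries for EXO1, above them for POLQ and below them for PMS2.

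Of 29 other tested genes of excision and single-strand break repair, such as the replication ligase, clamp and clamp loader, 24 rose and 2 fell under VIC-1911 at 7 days, 21 rose and 1 fell under olaparib, and 12 rose and 2 fell under the combination. At 2 days, 12 of the 29 fell (edgeR). Their largest values under the combination were those of PCNA, the replication clamp (0.78, SE 0.078, adjusted p = 8.09e-10), LIG1, the replicative DNA ligase (0.64, SE 0.089, adjusted p = 4.22e-07), and POLD1, the catalytic subunit of polymerase delta (0.56, SE 0.061, adjusted p = 5.86e-09). Against olaparib the combination lowered 14 of the 29, and against VIC-1911 it lowered 22. Several of these genes also act in replication. Of 14 other tested genes of end joining and end choice, 8 rose and 1 fell under VIC-1911, 7 rose and 1 fell under olaparib, and 3 rose and 2 fell under the combination. In the last comparison PARP3 fell (-0.41, SE 0.10, adjusted p = 0.00119) and RNF168, a ubiquitin ligase upstream of TP53BP1, rose (0.20, SE 0.056, adjusted p = 0.00336). Of the 9 prostate markers, 2 rose and 6 fell under the combination, and of the 9 markers of other cell types only COL1A1 and VWF were tested.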

How the data were processed

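Poly(A) RNA of 18 C4-2B libraries was measured. The authors aligned reads to hg38 with STAR (version 2.6.0 per the labels) and deposited raw read counts per gene for each time point. They also deposited FPKM values per gene, which the authors computed with their own script, and at 2 days these rest on a larger read set than the counts. Strand setting and the handling of multiply mapped reads are not given in the sources used here. Groups followed the labels. Genes with 10 or more reads in 3 or more libraries entered edgeR 4.0.16 in R 4.3.3 (TMM normalization, quasi-likelihood test, Benjamini-Hochberg adjustment over all tested genes), with 12241 genes at 2 days, 14409 at 7 days and 13832 in the difference between days. All 7-day groups shared 1 fit. Alternatives were upper-quartile normalization, library size alone, no count filter, a block for the replicate number, DESeq2 1.42.0, limma 3.58.1 on log2(FPKM + 0.1) or log2(FPKM + 1), the compared groups alone, and each library left out. The scripts were tested on simulated data.

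The 36 genes and the other gene lists were chosen with earlier results of these data known. Values in every library are given for genes past the adjusted p and fold limit in any comparison, the 3 largest rises and falls in each comparison with vehicle, the 3 smallest adjusted p in the interaction and in the difference between days, and the most abundant gene of each pathway. XRCC1, XRCC4 and other genes are given by means, ranges or changes. Of the other lists, at most 3 genes are named, those with the largest change past the test under the combination. Promoter sequences and gene positions are from RefSeq (GRCh38.p14).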

Additional observations from a re-analysis of the deposited data

Results flagged for a closer look

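The effect of VIC-1911 at 7 days differed with and without olaparib for 21 of the 36 genes, by the interaction term of edgeR's fit at an adjusted p under 0.05 over all tested genes. Of all tested genes, 22.9% passed as lower in the interaction and 21% as higher. The log2 fold change in the presence of olaparib was lower than in its absence for 16 genes, namely EXO1 (-1.87), POLQ (-1.69), NEIL3 (-1.38), APEX2 (-0.83), TDG (-0.80), MSH6 (-0.79), XRCC1 (-0.71), XRCC4 (-0.63), UNG (-0.60), XRCC5 (-0.58), PRKDC (-0.57), NTHL1 (-0.47), POLB (-0.35), XRCC6 (-0.33), NEIL2 (-0.33) and ALKBH2 (-0.30). It was higher for 5 genes, namely NEIL1 (1.08), POLL (0.46), MPG (0.40), PMS2 (0.35) and TP53BP1 (0.33). The interactions of POLB, TP53BP1 and XRCC4 lost their calls when single libraries were left out.

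The effect of VIC-1911 also differed between 7 and 2 days for 20 genes, by the difference of both effects in 1 edgeR fit. In that fit 14.6% of tested genes passed as higher at 7 days and 14.2% as lower. The log2 fold change was higher at 7 days for 15 genes, namely NEIL3 (1.69), EXO1 (1.55), POLQ (1.41), APEX2 (0.70), XRCC1 (0.58), NTHL1 (0.55), XRCC5 (0.49), MSH6 (0.49), TDG (0.47), PRKDC (0.44), POLB (0.41), NEIL2 (0.39), ALKBH2 (0.39), UNG (0.33) and XRCC6 (0.28). It was lower at 7 days for 5 genes, namely NEIL1 (-0.88), PMS2 (-0.47), MPG (-0.38), POLL (-0.37) and LIG3 (-0.25). The days were separate experiments, so duration and experiment cannot be told apart, and the differences of LIG3, POLB, POLL and XRCC1 lost their calls when single libraries were left out.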

How the results depend on the processing

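Of 145 calls of the 36 genes over 8 comparisons, 108 were kept in every alternative and 37 were lost in at least 1, of which 36 were lost when a single library was left out. With upper-quartile normalization, genes passing as higher numbered 0 for VIC-1911 at 2 days and 2 for the combination over olaparib, and the median log2 fold change was -0.053 for VIC-1911 at 2 days, 0.101 for VIC-1911 at 7 days, 0.141 for the combination, -0.00895 for the combination over olaparib, -0.0207 for the combination over VIC-1911 and -0.0909 for the interaction. Of 12241 tested genes 734 passed as higher at 2 days, and of 14409 genes 786 for the combination over olaparib. The median of all tested genes was, in the same order, -0.0247, -0.0255, 0.0222, 0.0152, 0.0454 and 0.04. With library size alone, those of the 36 genes passing as higher numbered 0 for VIC-1911 at 2 days, and their median log2 fold change was 0.144 for VIC-1911 at 7 days, 0.22 for olaparib, 0.173 for the combination, -0.0302 for the combination over VIC-1911, -0.142 for the interaction and 0.143 for the difference between days. Of 12241 tested genes 781 passed as higher at 2 days. The median of all tested genes was, in the same order, 0.0175, 0.0543, 0.0552, 0.0357, -0.0109 and 0.0413. With no count filter, the median log2 fold change of the 36 genes was 0.132 for VIC-1911 at 7 days, -0.0366 for the combination over olaparib, -0.0729 for the combination over VIC-1911 and -0.149 for the interaction. With DESeq2, genes passing as higher numbered 0 for VIC-1911 at 2 days, and genes passing as lower numbered 1 for VIC-1911 at 2 days. There 452 of 10817 tested genes passed as higher and 395 as lower, against 918 and 880 of 12241 in the main fit. With limma on log2(FPKM + 0.1), those of the 36 genes passing as higher numbered 0 for VIC-1911 at 2 days, 0 for the combination over olaparib and 5 for the combination over VIC-1911, and their median log2 fold change was -0.0475 for VIC-1911 at 2 days, 0.162 for VIC-1911 at 7 days, -0.0994 for the combination over VIC-1911 and -0.189 for the interaction. Over all tested genes, 674 of 12237 passed as higher at 2 days, and 322 and 2216 of 14403 in the other 2 comparisons. With limma on log2(FPKM + 1), those of the 36 genes passing as higher numbered 0 for VIC-1911 at 2 days, 0 for the combination over olaparib and 5 for the combination over VIC-1911, and their median log2 fold change was 0.156 for VIC-1911 at 7 days, 0.106 for the combination, -0.0901 for the combination over VIC-1911 and -0.178 for the interaction. The counts over all tested genes were 672 of 12237, and 353 and 2228 of 14403. With limma on log2(FPKM + 0.1) limited to genes averaging 1 FPKM or more, those of the 36 genes passing as higher numbered 0 for VIC-1911 at 2 days, 0 for the combination over olaparib and 5 for the combination over VIC-1911, and their median log2 fold change was -0.0475 for VIC-1911 at 2 days, 0.162 for VIC-1911 at 7 days, -0.0994 for the combination over VIC-1911 and -0.189 for the interaction. The counts over all tested genes were 699 of 11250, and 329 and 2022 of 12107. In the main fit the median of the 36 genes was -0.0315 for VIC-1911 at 2 days and 0.121 at 7 days. It was 0.176 for olaparib and 0.122 for the combination. For all tested genes these medians were -0.00337, -0.00518, 0.0101 and 0.00464. In the settings above, each listed median moved in the same direction as that of all tested genes, except for the combination with limma on log2(FPKM + 1). The cause of these moves was not tested. With each library left out, those of the 36 genes passing as higher numbered 0 to 2 for VIC-1911 at 2 days, 15 to 17 for VIC-1911 at 7 days, 14 to 17 for olaparib, 11 to 15 for the combination, 0 to 2 for the combination over olaparib, 5 to 9 for the combination over VIC-1911, 4 to 7 for the interaction and 13 to 15 for the difference between days. Over all tested genes the counts were 624 to 879, 3136 to 3595, 3380 to 3874, 3510 to 4000, 334 to 746, 2495 to 2841, 2687 to 3132 and 1719 to 2415, in the same order. These fits tested 12012 to 12221 genes at 2 days, 14295 to 14409 at 7 days and 13570 to 13831 for the difference. Those of the 36 genes passing as lower numbered 1 to 3 for VIC-1911 at 2 days, 7 in each fit for VIC-1911 at 7 days, 7 to 8 for olaparib, 8 to 10 for the combination, 4 to 7 for the combination over olaparib, 8 to 10 for the combination over VIC-1911, 14 to 16 for the interaction and 4 to 6 for the difference between days. Over all tested genes the counts were 564 to 806, 3209 to 3721, 3289 to 3614, 3692 to 3943, 651 to 1197, 2735 to 3103, 2818 to 3274 and 1601 to 1879, in the same order. The median of the 36 genes was -0.0386 to -0.0122 for VIC-1911 at 2 days, 0.086 to 0.144 for VIC-1911 at 7 days, 0.148 to 0.178 for olaparib, 0.0505 to 0.136 for the combination, -0.0481 to -0.028 for the combination over olaparib, -0.0683 to -0.0477 for the combination over VIC-1911, -0.146 to -0.0835 for the interaction and 0.0678 to 0.175 for the difference between days. Values that changed sign had not passed the test, namely NEIL1 (VIC-1911 at 2 days) at 0.00709, 0.0145 and 0.00481, PMS2 (VIC-1911 at 2 days) at -0.0201, -0.0127, -0.0278 and -0.0256 and XRCC5 (the combination over olaparib) at 0.00403 under the other settings. With each library left out, the values whose sign changed were as follows, ALKBH2 (VIC-1911 at 2 days) from -0.0537 to 0.0138, APEX2 (the combination over VIC-1911) from -0.108 to 0.0169, MBD4 (VIC-1911 at 2 days) from -0.121 to 0.0381, NEIL1 (VIC-1911 at 2 days) from -0.14 to 0.116, PMS2 (VIC-1911 at 2 days) from -0.0507 to 0.0784, POLL (VIC-1911 at 2 days) from -0.13 to 0.0359, POLL (the combination over olaparib) from -0.0159 to 0.117, POLQ (VIC-1911 at 2 days) from -0.168 to 0.057, TP53BP1 (the combination over VIC-1911) from -0.00587 to 0.13, TP53BP1 (the combination over olaparib) from -0.106 to 0.018, XRCC5 (the combination over olaparib) from -0.0383 to 0.0433, XRCC6 (the combination) from -0.00229 to 0.050. Deviations from the group mean were little correlated between same-numbered libraries (r of -0.00287 to 0.0438 over 3 pairs at 2 days and -0.0356 to 0.111 over 18 pairs at 7 days). Such low correlations cannot show whether same-numbered libraries were handled together. With the replicate block, 17 of the 36 genes passed as higher under olaparib and 15 as lower in the interaction, XRCC4 being lost in both (0.40 and -0.58, adjusted p = 0.0626 and 0.0574, edgeR), and the other counts of passing genes among the 36 were as reported. Of 14409 tested genes, 4065 passed as higher under olaparib and 3354 as lower in the interaction. limma was not run for the difference between days, and fits of the compared groups alone were not run for 2 days, the interaction or the difference between days. The 2-day libraries held 3245273 to 7184420 counts, against 4967931 to 19684208 at 7 days, and the effect of depth on the calls was not tested.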
